A study of Mus musculus with 2 samples.

Results

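The miR-29 family of the mouse consists of 4 hairpin loci, Mir29a, Mir29b-1, Mir29b-2 and Mir29c, and all 4 had a row among the 1973 miRNA rows of each library. They were chosen by name, through the gene identifier of each row in the mouse annotation. MicroRNAs had been sequenced from forebrains of B6NCrl mice at an age of 0 days after birth. The series holds 1 group of 2 libraries, each from a single forebrain, that of pup 3 (replicate 2) and that of pup 1 (replicate 1). No treatment, mutation or second age was compared. The labels list a single donor entry for the 2 pups and no sex.

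MicroRNAs are short RNAs cut from either arm of a hairpin, the 5p or the 3p arm, and they repress messenger RNAs that pair with their seed, bases 2 to 8. The miR-29 family is known for low levels in the embryonic brain and a steep rise after birth, which makes it a marker of brain maturation. Its known targets include Dnmt3a, a DNA methyltransferase of maturing neurons, BH3-only genes that trigger the death of neurons, and collagens of connective tissue. The present libraries sample the day of birth, and a later age was not analysed here.

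The mature sequences bear on how each locus can be counted. Each 3p arm is printed 5′ to 3′ from RefSeq (GRCm38.p6), with the seed in capitals.
miR-29a-3p: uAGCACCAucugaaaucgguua
miR-29b-3p: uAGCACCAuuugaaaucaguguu
miR-29c-3p: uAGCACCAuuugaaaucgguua
All 3 carry the seed AGCACCA, and they were the only 3 of 1679 mature miRNAs in the RefSeq table that did. Counted from 1 at the 5′ end, miR-29a-3p differs from miR-29c-3p by 1 substitution, C10U. From miR-29b-3p, miR-29c-3p differs at its 3′ end, by A18G, G21U and U22A with the base of miR-29b-3p first, while the first 17 bases are identical. The end of miR-29b-3p, AGUGUU, is known from human cells to direct it to the nucleus. Of the 1679 mature miRNAs, 2 ended in these letters (0.119%), miR-29b-3p and miR-92b-5p.

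The 5p arms, printed in the same way, differ at every locus.
miR-29a-5p: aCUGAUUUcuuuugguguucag
miR-29b-1-5p: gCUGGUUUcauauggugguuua
miR-29b-2-5p: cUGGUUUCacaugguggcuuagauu
miR-29c-5p: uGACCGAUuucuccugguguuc
Their 4 seeds are all different, and miR-6338 was the 1 other mature miRNA that shares one, that of miR-29b-2-5p. The tables give 1 count for each locus, so reads of the 5p and the 3p arm were not separated.

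The sequence of miR-29b-3p occurs in 2 hairpins, and the hairpins are printed here because the overlap bears on every value of Mir29b-1 and Mir29b-2. Capitals mark the longest run that both contain.
Mir29b-1: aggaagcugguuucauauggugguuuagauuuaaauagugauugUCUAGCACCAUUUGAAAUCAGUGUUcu
Mir29b-2: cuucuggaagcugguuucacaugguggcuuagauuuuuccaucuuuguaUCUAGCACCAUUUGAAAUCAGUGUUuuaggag
The run is 25 bases long and holds the whole 23-base miR-29b-3p with 2 bases before it. The deposited tables list reads that map to several places in a row of their own and not at a locus, and a read that lies within the run fits both hairpins. The counts of the Mir29b-1 and Mir29b-2 rows can therefore hold reads of the 5p arms, or 3p reads that reach beyond the run, and are not a measure of miR-29b-3p. Mir29a shared none of its 67 windows of 22 bases with another annotated hairpin, Mir29c shared 1 of 67, Mir29b-1 shared 5 of 50 and Mir29b-2 shared 4 of 60.

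The loci form 2 clusters, each with a miR-29b copy upstream. On chromosome 6 of GRCm38, Mir29b-1 (ENSMUSG00000065604.1, 31063023 to 31063093) and Mir29a (ENSMUSG00000065610.1, 31062660 to 31062747) lie on the minus strand, 275 bases apart. Mir29a overlaps no other annotated gene, and Mir29b-1 overlaps 2 bases of an exon of the noncoding RNA Gm27019 on its own strand. On chromosome 1, Mir29b-2 (ENSMUSG00000065412.2, 195037040 to 195037120) and Mir29c (ENSMUSG00000065548.1, 195037547 to 195037634) lie on the plus strand, 426 bases apart. Both lie in exon 3 of a transcript of the noncoding gene A330023F24Rik, and, on the other strand, in exon 11 of a transcript of Cd46, a complement regulator. No read was counted on the opposite strand of any of the 4 loci in either pup.

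**Figure D1:**
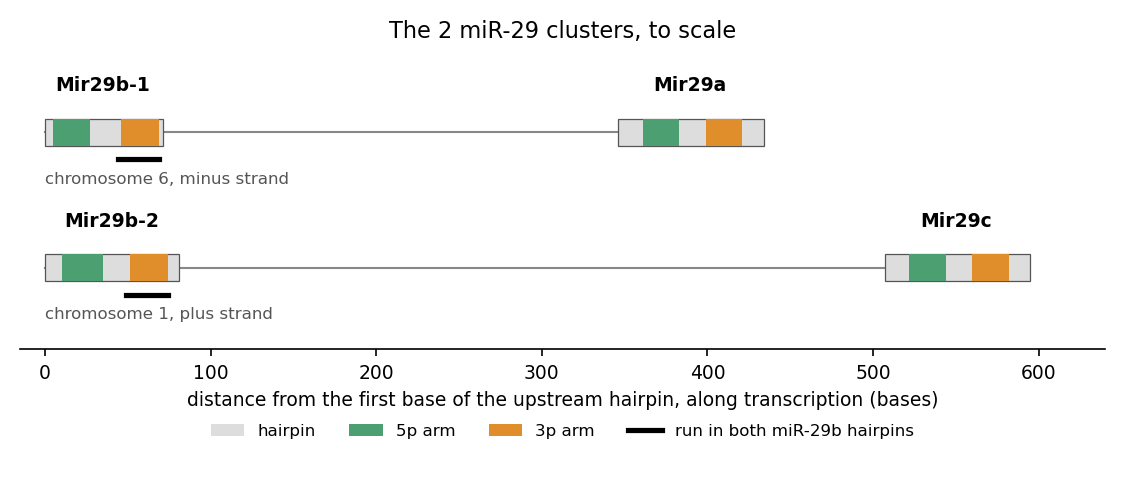
Layout of the 2 miR-29 clusters, with the distance from the first base of the upstream hairpin along transcription on the x axis, in bases. Grey boxes are hairpins, green and orange boxes the 5p and 3p arms, and black bars the run of 25 bases that both miR-29b hairpins contain. In either cluster the miR-29b copy comes first, and the bar covers its 3p arm.

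The libraries held 2427066 counts on the strand of a miRNA locus in pup 3 and 2742746 in pup 1, and CPM are counts per 1000000 of these. Reads with more than 1 place in the genome were 44.1% of all reads in pup 3 and 42.2% in pup 1. Intervals are exact Clopper-Pearson intervals at 95% and cover counting error only, since copies made by PCR are counted as reads of their own. As a check of the tissue, neuron-enriched loci held 4.87% ± 0.494 of the counts (mean ± SD, n = 2, as throughout). Mir137 led them with a mean of 25786 CPM. Mir124a-1, Mir124a-2 and Mir124a-3 were low, with means of 7.06, 1.74 and 0.959 CPM, not counting reads that map to several places. The Hox cluster loci, which mark hindbrain and spinal cord, held 0.0252% ± 0.00228. Of these, Mir10b had 150 CPM in pup 3 and 120 CPM in pup 1, and Mir10a had 104 and 108 CPM. Mir196a-1 had 0 counts in both pups. By a floor of 3 counts that allows up to 1.24 CPM in pup 3 and 1.09 CPM in pup 1.

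The miR-29 family was a minor part of the counted miRNAs on the day of birth. The 4 loci together had 1139 counts in pup 3, or 0.0469% (0.0442 to 0.0497%), and 2202 counts in pup 1, or 0.0803% (0.0770 to 0.0837%). The mean share was 0.0636% ± 0.0236. Nearly all of it came from Mir29a and Mir29c: the 2 miR-29b rows held 1.76% of the family's counts in pup 3 and 1.77% in pup 1. Because miR-29b-3p is not assigned to a locus, the share of the whole family in these brains is uncertain, and the sum leaves out every read that the tables place in the row for several places.

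Mir29a, which makes miR-29a, was the highest of the 4. It had 662 counts in pup 3, or 273 CPM (252 to 294), and 1257 counts in pup 1, or 458 CPM (433 to 484). Its mean of 366 ± 131 CPM put it at rank 143 of all rows, above 56.8% of the 331 loci with at least 10 counts in both pups. Mir29a thus stood in the middle of the detected loci.

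Mir29c, which makes miR-29c, came next. It had 457 counts in pup 3, or 188 CPM (171 to 206), and 906 counts in pup 1, or 330 CPM (309 to 353). The mean was 259 ± 100.4 CPM, at rank 161 and above 51.4% of the detected loci. In each pup Mir29c was below Mir29a and the 2 intervals did not overlap. Mir29c in pup 1 was above Mir29a in pup 3, so the order held within each pup and not across the animals.

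The miR-29b rows were near the limit of detection. Mir29b-1 had 11 counts in pup 3, or 4.53 CPM (2.26 to 8.11), and 26 counts in pup 1, or 9.48 CPM (6.19 to 13.9), with a mean of 7.01 ± 3.50 CPM at rank 313. Mir29b-2 had 9 counts in pup 3, or 3.71 CPM (1.70 to 7.04), and 13 counts in pup 1, or 4.74 CPM (2.52 to 8.11), with a mean of 4.22 ± 0.729 CPM at rank 339. In both pups the intervals of the 2 miR-29b rows overlapped, so they could not be ordered. The gap between them and Mir29a or Mir29c was far larger than the spread between the pups. It is a gap of counts as assigned, without 3p reads that fit both miR-29b hairpins.

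**Figure D2:**
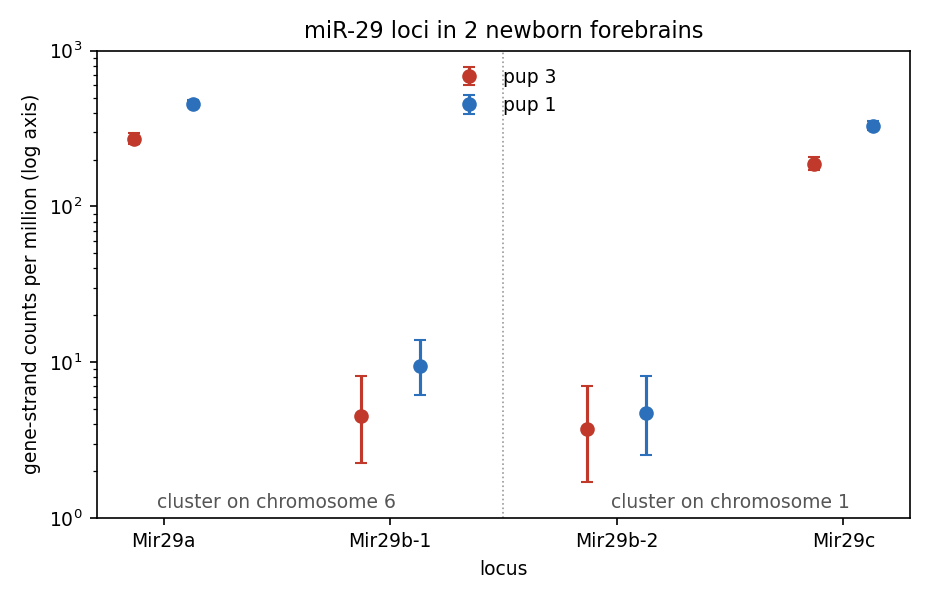
Level of each miR-29 locus on the y axis, in gene-strand CPM on a log axis, in pup 3 (red) and pup 1 (blue), with exact 95% intervals. Mir29a and Mir29c sit between 188 and 458 CPM and the miR-29b rows between 3.71 and 9.48 CPM, and the intervals of pup 3 and pup 1 overlap at the miR-29b rows but not at Mir29a and Mir29c.

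**Figure D3:**
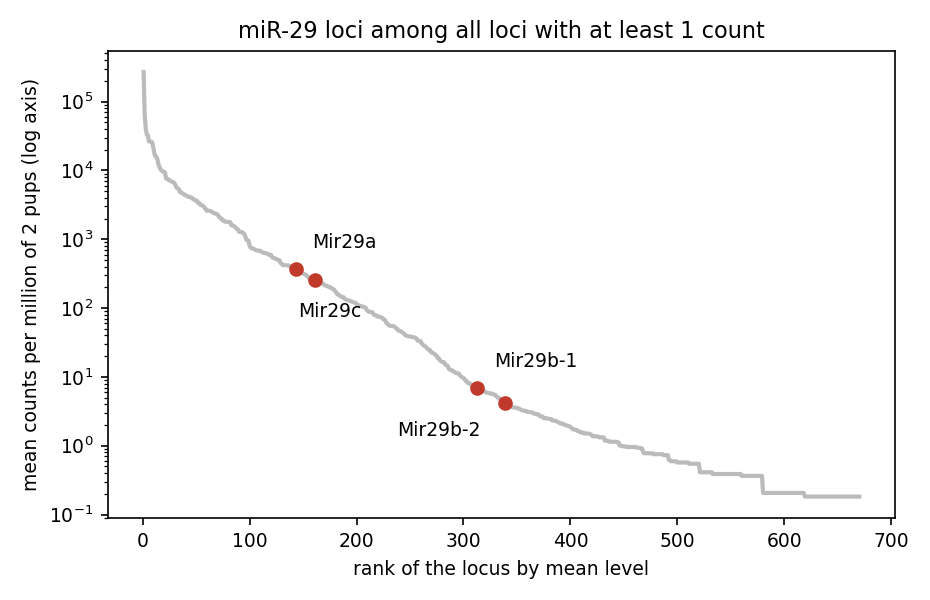
Mean CPM of the 2 pups on a log y axis against the rank of the locus, for all loci with at least 1 count (grey line), with the miR-29 loci as red points. Mir29a and Mir29c stand at ranks 143 and 161, in the middle of the detected loci, and the miR-29b rows at ranks 313 and 339.

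In counts as assigned, the cluster of Mir29a and Mir29b-1 was higher than that of Mir29b-2 and Mir29c, by nearly the same factor in both animals. Reads of miR-29b-3p that fit both hairpins are in neither sum, so the sums are not the whole output of a cluster. Summed, the Mir29a/Mir29b-1 cluster held 0.0277% of the counts in pup 3 and 0.0468% in pup 1 (mean 0.0373% ± 0.0135). The Mir29b-2/Mir29c cluster held 0.0192% in pup 3 and 0.0335% in pup 1 (mean 0.0264% ± 0.0101). The ratio of the first cluster to the second was 1.44 (1.28 to 1.63) in pup 3 and 1.40 (1.28 to 1.52) in pup 1, a mean log2 ratio of 0.50 ± 0.03 on CPM + 1. The shares of the counts varied more between the pups than between the clusters, while the ratio within a pup varied little.

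Of the family's counts, 59.1% (56.2 to 62.0%) came from the Mir29a/Mir29b-1 cluster in pup 3 and 58.3% (56.2 to 60.3%) in pup 1. The difference of 0.822 percentage points between the pups had a 95% Newcombe interval of −2.71 to 4.32, so a shift in the balance of the clusters was not detectable at this depth. Mir29a and Mir29c held nearly all of these counts, so the ratio between them alone was close to that of the clusters by construction. It was 1.45 (1.28 to 1.64) in pup 3 and 1.39 (1.27 to 1.51) in pup 1. Since miR-29a-3p and miR-29c-3p are 1 base apart and the mismatches allowed in alignment are not known here, how reads of either were assigned is not known, and the ratio is one of counts as assigned. Between Mir29b-1 and Mir29b-2 it was 1.22 (0.460 to 3.34) in pup 3 and 2.00 (0.991 to 4.24) in pup 1, and both intervals include equal levels. Both clusters were counted in the same pups, so their values are paired, and with 2 animals no test over animals was made. Small RNA libraries favour some sequences in ligation and amplification, and the part of this in a ratio between 2 loci was not tested.

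Within each cluster the counts as assigned differed by a wide margin between the 2 neighbours. Reads of miR-29b-3p that fit both hairpins are not counted at the miR-29b rows. The factors are therefore not a measure of what each neighbour makes. Mir29a had 60.2 times the counts of Mir29b-1 in pup 3 (33.4 to 121) and 48.3 times in pup 1 (32.8 to 74.3). Mir29c had 50.8 times those of Mir29b-2 in pup 3 (26.5 to 112) and 69.7 times in pup 1 (40.5 to 131). Both factors were thus alike in either cluster within their counting error. Among the 42 clusters with at least 2 detected loci (neighbours at most 10 kb apart on 1 strand), the highest locus stood a median of 17.1-fold above the lowest, and 12 exceeded the 52.2-fold between the mean levels of Mir29a and Mir29b-1. These clusters held up to 30 detected loci, and such a fold can only grow with more loci. The comparison is therefore not one of pairs with pairs.

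Of 49 loci that, like Mir29b-1 and Mir29b-2, have 1 mature arm found in another hairpin and 1 arm of their own, 32 were detected, with at least 10 counts in both pups (65.3%), with a median of 39.0 CPM over all 49 and 123 CPM over those detected. Mir29b-1 was among those detected and Mir29b-2, with 9 counts in pup 3, was not, and both were below the median of all 49. Of 832 loci with no shared arm, 266 were detected (32.0%), with a median of 0.547 CPM over all and 248 CPM over those detected. The 2 classes therefore change order with the loci taken, and these values describe the table.

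In the miR-26 family, whose loci lie in Ctdsp phosphatase genes, the loci with a shared arm were low as well. Mir26a-1 had 11.1 CPM in pup 3 and 13.5 CPM in pup 1, and Mir26a-2 had 44.1 and 41.9 CPM. Mir26b, whose arms are its own, had 8380 CPM in pup 3 and 10830 CPM in pup 1. In the cluster of Mir23a, Mir27a and Mir24-2, Mir24-2, which shares an arm with Mir24-1, had 89.0 CPM in pup 3 and 86.4 CPM in pup 1, and Mir27a, which shares none, had 64.7 and 91.1 CPM. Mir24-1 had no row that matched, Mir23a had 4930 CPM in pup 3 and 5801 CPM in pup 1, Mir23b 9015 and 9640 CPM, and Mir27b 456 and 734 CPM. A shared arm went with the lowest levels in the miR-29 and miR-26 loci, while Mir24-2 was above Mir27a in pup 3 and below it in pup 1.

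Mir29a and Mir29c were lower in pup 3 than in pup 1. Each side is 1 animal, so the test, a two-sided Fisher's exact test with Benjamini-Hochberg adjustment across 400 loci of at least 10 summed counts, compares these libraries and not conditions. Mir29a had a log2 ratio of −0.75 (−0.89 to −0.61), or 0.596 of its level in pup 1 (adjusted Fisher's exact p = 1.38e-27). Mir29c had a log2 ratio of −0.81 (−0.98 to −0.65), or 0.571 of its level in pup 1 (adjusted Fisher's exact p = 5.81e-23). The intervals of the 2 ratios overlap, so the loci, 1 from each cluster, differed between the pups by factors that could not be told apart.

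The miR-29b rows did not pass the test. Log2 ratios between the pups are of CPM + 1, while their intervals come from the counts alone. At low counts, as in these rows, the ratio is therefore drawn toward equal levels relative to its interval. Mir29b-1 had a log2 ratio of −0.92 (−2.23 to 0.00; adjusted Fisher's exact p = 0.0776) and Mir29b-2 of −0.29 (−1.76 to 0.98; adjusted Fisher's exact p = 0.769). With 20 counts in pup 3 and 39 in pup 1 over both rows, a difference of the size seen at Mir29a was within their intervals and was not detectable at this depth.

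The background of these calls was high. Of the 400 tested loci, 56.5% were called in either direction and 46.2% lower in pup 3, and 2 of the 4 miR-29 loci were called, both lower. The median log2 ratio of all tested loci was −0.31, and that of the 4 miR-29 loci −0.78. Relative to the median of all loci, Mir29a was at −0.43, Mir29c at −0.49, Mir29b-1 at −0.61 and Mir29b-2 at 0.03. Log2 ratios at or below that of Mir29a were found at 14.8% of the tested loci, and at or below that of Mir29c at 12.5%. With DESeq2 size factors, which centre the ratios, 45.2% of loci were called in either direction and 20.8% lower in pup 3, and Mir29a (−0.43, adjusted exact binomial p = 9.23e-10) and Mir29c (−0.50, adjusted exact binomial p = 4.97e-09) were among them. With TMM library sizes 46.5% were called in either direction and 26.0% lower, again with Mir29a and Mir29c and without the miR-29b rows.

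**Figure D4:**
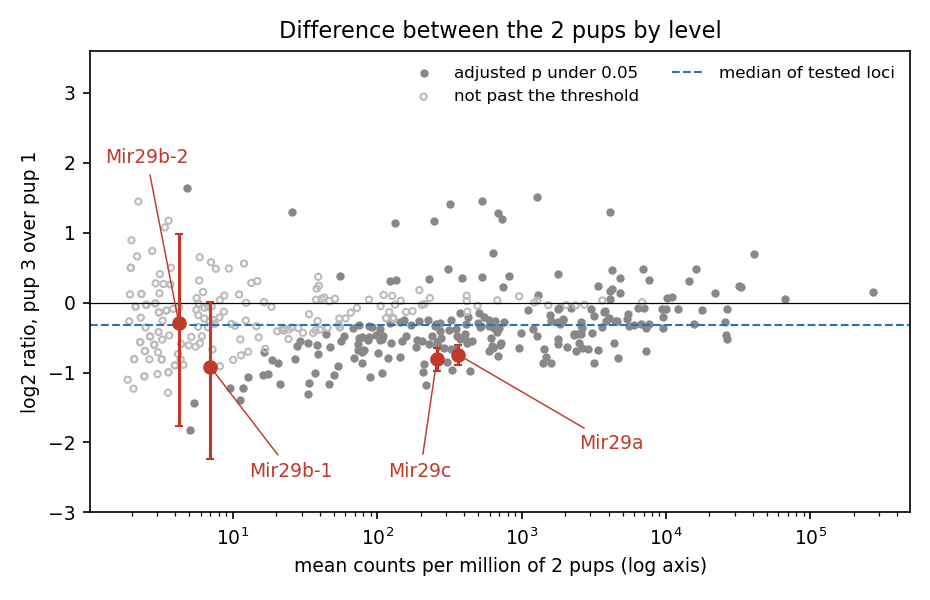
Log2 ratio of pup 3 over pup 1 on the y axis against the mean CPM on a log x axis for the 400 tested loci, filled where the adjusted p was under 0.05. The miR-29 loci are red with 95% intervals of counting error, and the dashed line marks the median over the whole test, −0.31. Mir29a and Mir29c lie below the dashed line with their intervals, and those of the miR-29b rows cross it.

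The loci with the most similar levels over the 2 libraries have like ratios by the way they were chosen. Likeness was the Euclidean distance in log2(CPM + 1) over the 2 libraries, so it reflects level and ratio together in 2 points. For Mir29a the nearest were Mir700 (distance 0.128), Mir485 of the imprinted Dlk1-Dio3 region (0.183) and Mir384 (0.195), with log2 ratios of −0.66, −0.52 and −0.47. For Mir29c they were the hypoxia-induced Mir210 (0.145), Mir455 (0.146) and Mir383 (0.177), with log2 ratios of −0.61, −0.62 and −0.57. For Mir29b-1 they were Mir764 (0.207), Gm23873 (0.275) and the skeletal muscle miRNA Mir206 (0.338), from 11 to 13 counts in pup 3 and 20 to 30 in pup 1.

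Loci of other cell types were set beside the miR-29 ratios, since a forebrain holds several of them and fewer cells of a type cannot be told apart from less RNA per cell. The astrocyte-associated list, of miRNAs that like miR-29 are known to be higher in cultured astrocytes than in neurons, summed to 2.24% of the counts in pup 3 and 2.63% in pup 1. All 5 of its loci were detected, 3 were lower in pup 3 and none higher, and the median log2 ratio was −0.23. It was led by Mir26b (−0.37), Mir23b (−0.10) and Mir23a (−0.23). With size factors 2 were higher and 1 lower. Over all 400 tested loci, 41 were higher and 185 lower with library totals. With size factors 98 of the 400 were higher and 83 lower.

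The neuron-enriched list summed to 4.52% in pup 3 and 5.22% in pup 1. Of its 13 tested loci 9 were lower and 2 higher, with a median of −0.37, but with size factors 5 were lower and 4 higher. Over all 400 tested loci, 185 were lower and 41 higher, and with size factors 83 were lower and 98 higher. Its highest loci were Mir137 (−0.28), Mir128-1 (0.07) and Mir128-2 (0.16). The list of dividing progenitors, of the miR-17-92 cluster, its paralogs and Mir92b, summed to 2.95% in pup 3 and 3.09% in pup 1, with 4 of 10 loci higher, 3 lower and a median of −0.11, while size factors gave 6 higher and 1 lower. It was led by Mir17 (0.06), Mir93 (0.14) and Mir106b (−0.27). All 3 lists had medians closer to 0 than the median of the miR-29 loci, −0.78, though Mir29b-2 alone was at −0.29.

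The remaining lists have the same background of 400 tested loci. Of these, 185 were lower and 41 higher with library totals, and 83 were lower and 98 higher with size factors. Oligodendrocyte loci summed to 0.0550% in pup 3 and 0.0729% in pup 1, with 2 of 3 lower (1 with size factors), a median of −0.36, and Mir338 (−0.35), Mir219a-1 (−0.72) and Mir219a-2 (−0.36). Blood vessel and connective tissue loci summed to 3.95% in pup 3 and 3.51% in pup 1, with 1 of 5 tested higher and 2 lower (3 and 0 with size factors), a median of −0.01, and Mir126a (0.22), Mir143 (−0.22) and Mir214 (0.10) leading. Microglia and white blood cell loci summed to 0.0427% in pup 3 and 0.0446% in pup 1, with 1 of 4 lower, a median of −0.17, and Mir150 (0.18), Mir223 (0.03) and Mir146 (−1.03) leading. With size factors 2 of these were higher and 1 lower. Of the Hox cluster loci, 2 of 4 tested were higher and none lower on either scale, with a median of 0.14, and Mir10b (0.33), Mir10a (−0.05) and Mir615 (−0.35) led. The oligodendrocyte, neuron-enriched, astrocyte-associated, progenitor and white blood cell sums were lower in pup 3 as the miR-29 sum was, the vessel and Hox sums were higher, and their part in the miR-29 difference was not tested.

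**Figure D5:**
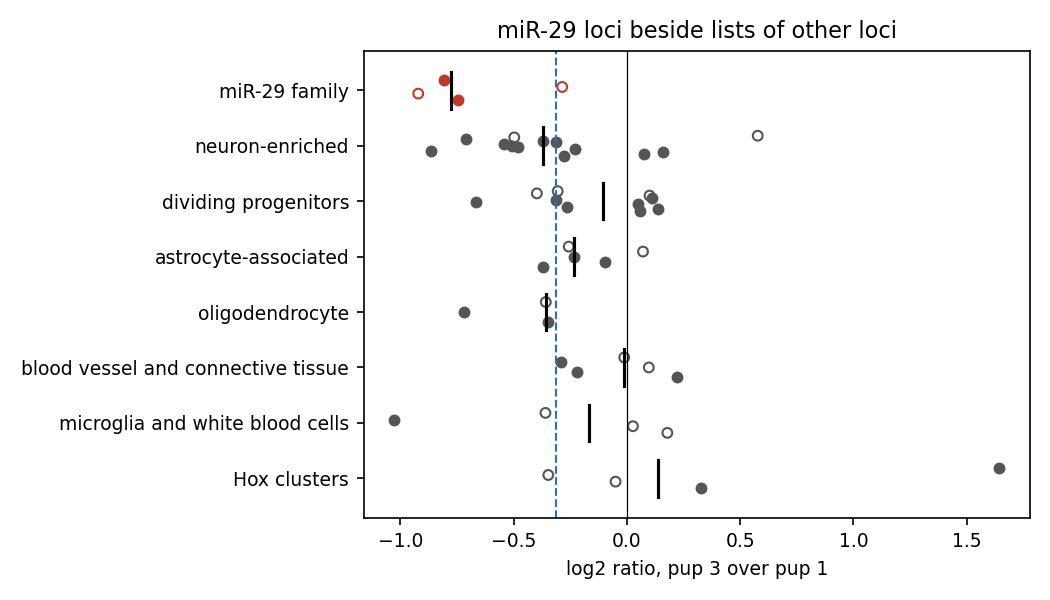
Log2 ratio of pup 3 over pup 1 on the x axis for the 4 miR-29 loci (red, top row) and for the tested loci of 7 lists, filled where the adjusted Fisher's exact p was under 0.05. Short vertical bars are medians and the dashed line is the median over the whole test, −0.31. The median of the miR-29 loci lies at −0.78 and those of the lists between −0.37 and 0.14.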

How the data were processed

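The authors deposited a table of raw counts per miRNA gene from each library, on assembly mm10 with annotation M4 per the text deposited with the files. For the aligner and counter, names and versions were not given in the sources used here. The tables split counts by strand, as read from their layout. The gene-strand counts were used, and the 4 rows that name no gene were left out of totals. Gene names and positions came from GENCODE M21 (GRCm38, the assembly of mm10), which matched 1894 of 1973 rows, and sequences from RefSeq (4 of 4 loci matched). The identifiers of Mir29b-1 and Mir29b-2 carry an older version in the tables than in M21, so their counted intervals may differ slightly.

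With a single group edgeR has no contrast, so Fisher's exact test compared the pups, at 0.05. Scales from edgeR (TMM) and DESeq2 were alternatives.

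The members, the 7 lists and the compared families were chosen with earlier results of these data known. Named loci are the members, the 3 nearest loci to each with at least 10 counts in both pups, and the 3 highest of each list. In the check of the tissue, Mir196a-1 and the Mir124a loci were named as well. Tools were Python 3.11.15, pandas 2.3.3, scipy 1.17.1, statsmodels 0.14.6, R 4.3.3, edgeR 4.0.16 and DESeq2 1.42.0.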

Additional observations from a re-analysis of the deposited data

How the results depend on the processing

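The log2 ratios of pup 3 over pup 1 kept their sign and their side of the threshold in every alternative that could be run. They ranged from −0.75 to −0.43 at Mir29a, −0.81 to −0.50 at Mir29c, −1.02 to −0.60 at Mir29b-1 and −0.33 to −0.03 at Mir29b-2. A minimum of 100 summed counts left no value for the miR-29b rows. The number of loci called, 226, was 181 with DESeq2 size factors (98 higher and 83 lower in pup 3) and 186 with TMM library sizes (82 and 104), against 41 higher and 185 lower with library totals. Over all reads of a library, the family held 0.0262%, the Mir29a/Mir29b-1 cluster 0.0154% and the Mir29b-2/Mir29c cluster 0.0109%, because the denominator is larger by construction. Without Mir99a in the total, the Mir29a/Mir29b-1 cluster held 0.0507%. The log2 ratio of the clusters was 0.55 for Mir29b-1 over Mir29b-2 alone, and 0.48 to 0.53 with either pup left out. The family share was 0.0469% to 0.0803% with either pup left out. No paired analysis was possible because the series has 1 group. The counts of the miR-29b rows, 9 to 26 per library, limit any statement on them.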
